A study of Sus scrofa with 12 samples.

Results

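The genes described here encode the acyltransferases and lipins that build triglyceride from glycerol 3-phosphate: GPAM, GPAT3 and GPAT4 for the first acylation, AGPAT1 and AGPAT2 for the second, LPIN1, LPIN2 and LPIN3 for the phosphatase step, and DGAT1 and DGAT2 for the last acylation. They were taken as a fixed list of 10 symbols, whatever their counts, and looked up by their Ensembl identifiers in pig gene names. All 10 had an entry among the 25880 genes of the count matrix, and 9 had counts and entered the test across 14262 genes. AGPAT2 had 0 counts in every pig.

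The samples were Semimembranosus muscle of 12 Italian Large White pigs, a heavy breed whose thigh is cured as ham, taken at 150 to 160 kg and 229 to 249 days of age. Intramuscular fat, IMF, is the lipid held within the muscle, largely as triglyceride in adipocytes between the fibres and in droplets inside them. The groups were 6 pigs with high IMF, pigs 1 to 6, aged 240.5 ± 4.68 days (SD, n = 6), and 6 pigs with low IMF, pigs 7 to 12, aged 238 ± 7.39 days (SD, n = 6). No treatment or genetic change set the groups apart by label. The pigs were picked as extremes of a larger population, so they do not describe pigs of average IMF, and each gave 1 sample of whole muscle.

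Triglyceride synthesis in most tissues follows the glycerol phosphate pathway. A fatty acyl chain is attached to glycerol 3-phosphate by a GPAT and another to the resulting lysophosphatidate by an AGPAT, a lipin removes the phosphate to leave diacylglycerol, and a DGAT adds the last chain. Diacylglycerol is also the start of phosphatidylcholine and phosphatidylethanolamine synthesis, so the steps before DGAT serve membranes as well as fat stores.

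The isoforms of a step are separate genes, and the coding bases of their catalytic motifs are shown to set relatives side by side. The following stretches of the pig genome, build Sscrofa11.1 with RefSeq gene models, are printed 5′ to 3′ on the coding strand. In the GPAT and AGPAT stretches the capitals mark the codons of the acyltransferase motif NHXXXXD, which holds the catalytic histidine and aspartate. In the lipins they mark the codons of DXDXT, the phosphatase motif, and in DGAT2 those of HPHG.
GPAT3: gccAATCATACCTCCCCAATAGACgtt
GPAT4: gccAACCACACTTCTCCCATCGACgtc
AGPAT1: tccAACCACCAGAGCTCCCTCGACctg
AGPAT2: tccAACCACCAGAGCATCCTGGACatg
LPIN1: atctccGACATTGACGGAACCatcacc
LPIN2: atttccGACATCGATGGAACAataacc
LPIN3: atctctGACATCGATGGCACCatcacc
DGAT2: tttgggtacCACCCCCACGGCatcatgggc
These lie in coding exons at chr8:134925803-134925829 (minus strand) for GPAT3, chr17:10716213-10716239 (plus) for GPAT4, chr7:24207871-24207897 (minus) for AGPAT1, chr3:124966046-124966072 (minus) for LPIN1, chr6:103721685-103721711 (plus) for LPIN2, chr17:44004407-44004433 (plus) for LPIN3 and chr9:10061559-10061588 (plus) for DGAT2. The AGPAT2 stretch lies on an unplaced scaffold, from 1103008 to 1103034 on the plus strand. Each motif was searched in the reading frame of the longest RefSeq coding sequence of a gene and matched 1 time in each gene shown. Of 20785 coding sequences, 2.28% held NHXXXXD, 6.08% DXDXT and 0.245% HPHG, so a match alone does not name a family. GPAM had no match to NHXXXXD in its frame. The motif of DGAT1, which belongs to another enzyme family than DGAT2, is split between exons and is not printed.

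Over whole coding sequences, GPAT3 and GPAT4 were 70.0% identical across 1305 aligned bases, and AGPAT1 and AGPAT2 61.6% identical across 804. The lipins were 64.2 to 65.7% identical pair by pair. The genes themselves are scattered. GPAM is on chromosome 14 (122538600 to 122582390, minus strand), GPAT3 on 8 (134912493 to 135002140, minus), GPAT4 on 17 (10705998 to 10724486, plus) and AGPAT1 on 7 (24205930 to 24208430, minus). LPIN1 is on 3 (124940557 to 125074137, minus), LPIN2 on 6 (103625725 to 103728151, plus), LPIN3 on 17 (43993710 to 44006188, plus), DGAT1 on 4 (452890 to 463665, plus) and DGAT2 on 9 (10032163 to 10066082, plus). DGAT1 overlaps HSF1, a heat shock transcription factor gene on the other strand, by 135 bases, and predicted genes lie within GPAT3 on the other strand and within LPIN1 on the same strand. The strand setting of the counting was not given in the sources used here, so reads of these overlaps could not be assigned with certainty.

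Each pig had 131048805 to 178013997 counts. By label 3 pigs of each group were gilts, but counts of 2 Y chromosome genes, at a limit of 100 counts, went against the labelled sex in 6 of 12 pigs, 2 with high and 4 with low IMF. Whether the sex labels or the assignment of count columns to pigs is at fault was not tested, and in the latter case the IMF group of a column could be wrong too. The log2FC of each gene is also given for the 4 high and 2 low IMF pigs that matched. A match in sex does not show that a column has the right IMF group, so these values do not check the groups. Shares, ratios and marker levels are given for all 12 pigs alone. Of the muscle fibre genes ACTA1, CKM and DES, every pig had a summed level of at least 24853 CPM (read counts scaled to the normalized total of each library), against at most 152 CPM for the adipocyte genes, so the samples were muscle by these markers. Adipocyte genes were detected in every pig except LEP, the leptin gene, which was at 0 in some. In whole muscle, fewer cells of a type and less RNA per cell cannot be told apart.

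GPAT4 and LPIN1 were the most abundant of the 9 genes once counts were set against gene length. Levels of different genes were compared as CPM per kilobase of RefSeq exonic length. On this scale GPAT4, a GPAT of the endoplasmic reticulum that supplies lipid droplets, had a mean of 37.8 ± 7.81 (SD, n = 12). LPIN1, which encodes the main phosphatidate phosphatase of skeletal muscle, had 6.35 ± 2.18. AGPAT1, DGAT2 and GPAT3 followed at 3.05 ± 0.472, 2.83 ± 1.78 and 2.24 ± 0.699 per kilobase. DGAT1 at 0.870 ± 0.183, LPIN3 at 0.634 ± 0.110, LPIN2 at 0.487 ± 0.0761 and GPAM at 0.325 ± 0.0501 were the lowest per kilobase.

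**Figure D1:**
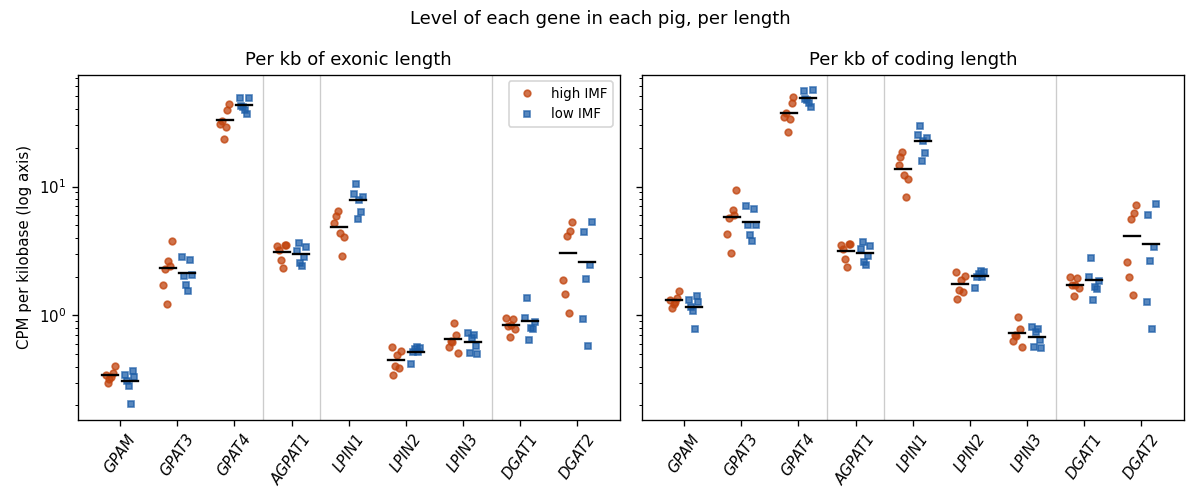
Level of each gene in each of the 12 pigs, as CPM per kilobase of exonic length (left) or coding length (right) on log axes, with high and low IMF pigs marked apart, horizontal lines at the group means and vertical lines between the 4 steps. By exonic length GPAT4 lies above all other genes in 12 of 12 pigs, and by either length GPAT4 and LPIN1 have the highest means.

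By exonic length the order was clear at its top and mixed in the middle. GPAT4 was above LPIN1 per exonic kilobase in 12 of 12 pigs with no overlap, and LPIN1 above AGPAT1 in 11. AGPAT1 was above DGAT2 in 7 pigs and DGAT2 above GPAT3 in 7, so these 3 could not be ordered beyond their spread. GPAT3 was above DGAT1 in 12 pigs and LPIN2 above GPAM in 12, although the ranges of each pair over all pigs overlapped. With coding length in place of exonic length GPAT4 at 43.0 and LPIN1 at 18.1 CPM per kilobase stayed first and second. GPAT4 was again above LPIN1 in 12 pigs, but with overlapping ranges. GPAT3 at 5.56 passed DGAT2 at 3.86 and AGPAT1 at 3.12. The AGPAT1 model has 880 exonic bases of which 861 are coding, and that of GPAT4 1557 of which 1368 are coding. That of LPIN1 has 8384 of which 2940 are coding, and that of GPAM 9429 of which 2478 are coding. Untranslated sequence thus entered the lengths unevenly. In CPM without length GPAT4 had means of 51.3 in high and 66.4 in low IMF, and LPIN1 of 40.3 and 66.1.

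The GPAT step was led by 1 gene. GPAT4 made up 93.6 ± 1.62% (SD, n = 12) of the summed GPAT level per exonic length, from 90.8% to 95.7%, and was the highest in 12 of 12 pigs. GPAT3, the close relative of GPAT4 known from adipocyte differentiation, gave 5.60% of the GPAT level per exonic length. GPAM, the mitochondrial GPAT that is prominent in liver, gave 0.838%. With coding length the GPAT4 share was 86.2%.

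In the lipin step LPIN1 was the highest in 12 of 12 pigs. Its share per exonic length was 83.7 ± 5.42% (SD, n = 12), from 72.6% to 91.0%, and 86.4% per coding length. LPIN2 and LPIN3, whose products have the same phosphatase activity and lead in other tissues, shared the rest. Which of them came second depended on the length used. LPIN3 had 9.33% and LPIN2 6.99% per exonic length, against 3.78% and 9.81% per coding length.

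The last step had no isoform that led in every pig. DGAT2, the enzyme tied to newly made fatty acids and to droplet growth, made up 70.5 ± 15.1% (SD, n = 12) of the DGAT level per exonic length, with a range of 42.0% to 87.0%. It was above DGAT1, the DGAT that acts broadly on fatty acids from outside the cell, in 10 of 12 pigs, all but pigs 7 and 10. Per coding length its share was 62.2 ± 16.8% and it led in 9 pigs. The ratio of DGAT2 to DGAT1 counts ran from 0.333 in pig 10 to 3.08 in pig 6.

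**Figure D2:**
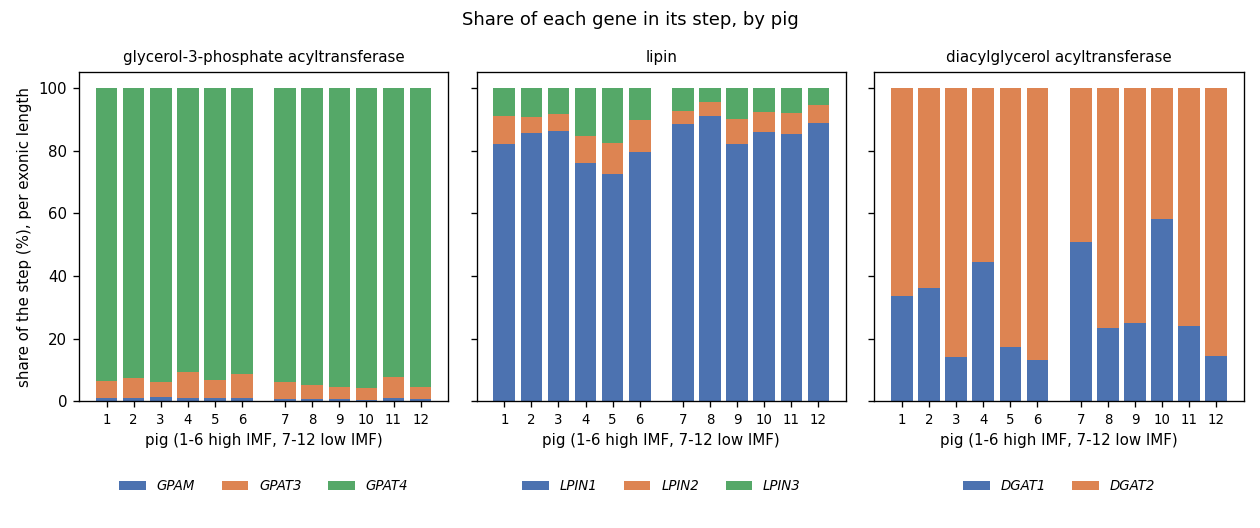
Share of each gene in the summed level of its step, in percent of CPM per exonic length, as stacked bars for each of the 12 pigs. GPAT4 fills over 90% of the GPAT bar in every pig and LPIN1 at least 72.6% of the lipin bar, while DGAT2 ranges from 42.0% to 87.0%.

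Of AGPAT1 and AGPAT2, the genes taken for the second acylation, only AGPAT1 had counts. The 0 counts of AGPAT2, the AGPAT gene mutated in a human congenital lipodystrophy, allow at most 3 counts per pig, or 0.0169 to 0.0229 CPM. This floor covers counting error only. Of the 25880 genes of the count matrix, 5539 had no count in any pig. AGPAT2 lies on an unplaced scaffold in the RefSeq models, and whether its reads could be counted at all was not tested. AGPAT1, the widely expressed AGPAT, had 2.74 ± 0.436 CPM in high IMF and 2.63 ± 0.428 CPM in low IMF (SD, n = 6 each). Other genes of the same acyltransferase family were higher than AGPAT1 per kilobase. LCLAT1, an acyltransferase known for cardiolipin and phosphatidylinositol remodelling, had 32.9 ± 8.93 CPM per exonic kilobase. AGPAT5, a mitochondrial AGPAT, had 13.0 ± 1.73. Per coding kilobase the means of these 2 genes were in the other order, AGPAT5 at 43.4 ± 5.81 and LCLAT1 at 33.7 ± 9.14 CPM, with overlapping ranges. The AGPAT5 model has 3676 exonic and 1098 coding bases, that of LCLAT1 1157 and 1131. AGPAT3 and AGPAT4 had 0.856 and 0.246 CPM per exonic kilobase, below AGPAT1. Per coding kilobase AGPAT3 was above AGPAT1, at 8.13 against 3.12 CPM, its model having 10747 exonic and 1131 coding bases. AGPAT3, AGPAT4 and AGPAT5 were singled out for this order after their values were seen.

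Set against IMF, none of the 9 genes passed the test, and LPIN1 and GPAT4 had the smallest p-values, both higher in low IMF. The log2 fold change (log2FC) was taken as low over high IMF. Genes were called by edgeR's quasi-likelihood test where the adjusted p did not exceed 0.05 and the log2FC reached 0.58 in either direction. It called 0 of 14262 genes (0%), and 0 of the 9. At an unadjusted p at or under 0.05, the 2 genes LPIN1 and GPAT4 remained of the 9, against 10.4% of all genes tested, or 5.38% in their direction. DESeq2 called 64 of 20341 genes with at least 1 count (0.315%) and 57 of the 14262 genes (0.4%), none of them among the 9, and limma-voom called 0 genes. Of the 9, LPIN1 alone reached 0.58 in log2FC, as did 8.45% of all genes tested. The 9 split into 4 higher in low IMF and 5 higher in high IMF, with a median log2FC of -0.06, against 6902 and 7360 genes and a median of -0.01 over all genes tested. In none of the 9 were the groups free of overlap, a pattern found in 0.659% of all genes.

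LPIN1 had the widest gap between the groups. In high IMF pigs its level was 24.3 CPM at the lowest, in pig 5, 39.9 at the median and 54.4 at the highest, in pig 3. In low IMF pigs it was 46.8 CPM at the lowest, in pig 9, 68.0 at the median and 87.3 at the highest, in pig 8. All 6 low IMF pigs lay above the high IMF median, 4 of them above every high IMF pig, and the groups overlapped between 46.8 CPM in pig 9 and 54.4 CPM in pig 3. The means were 40.3 ± 11.0 and 66.1 ± 14.6 CPM (SD, n = 6 each), log2FC 0.71 (SE 0.20).

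Taken alone, the LPIN1 difference had an exact two-sided permutation p of 0.0108 over all arrangements of the pigs, which cannot give less than 0.0022. That p was the smallest of the 9 genes and was not adjusted for this choice. The difference did not pass adjustment over all genes, with an edgeR adjusted p of 0.367 and DESeq2 adjusted p of 0.0515 on the same genes. In the 6 pigs whose Y counts matched the label the log2FC was 0.60, with an edgeR adjusted p of 0.998. Beside it, the summed level of the 3 muscle fibre genes found of 8 fixed ranged from 24853 to 37391 CPM in high IMF and from 25812 to 50868 CPM in low IMF (exact permutation p = 0.180). The 2 endothelial genes found of 3 ranged from 67.0 to 89.5 CPM and from 71.2 to 115 CPM (exact permutation p = 0.0584). The part of either list in the LPIN1 values was not tested.

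GPAT4 was higher in low IMF by a smaller factor. High IMF pigs had 36.4 CPM at the lowest, in pig 3, 49.1 at the median and 67.6 at the highest, in pig 6. Low IMF pigs had 56.6 CPM at the lowest, in pig 11, 64.6 at the median and 76.2 at the highest, in pig 12. Of the high IMF pigs 4 lay below every low IMF pig, and 2 low IMF pigs lay above every high IMF pig, so the groups overlapped in their middle range. The log2FC was 0.37 (SE 0.14), with an exact permutation p of 0.0238 and an edgeR adjusted p of 0.435. In pigs with matching Y counts it was 0.34.

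**Figure D3:**
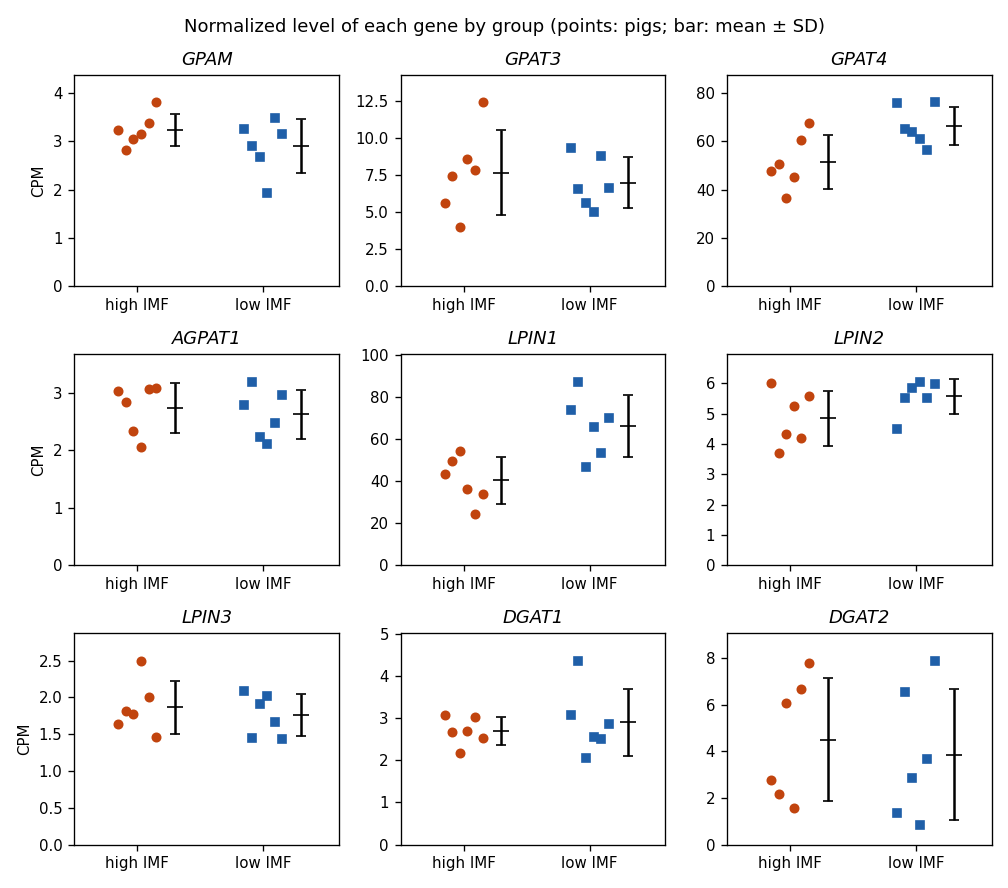
CPM of each of the 9 genes in each pig by IMF group, with the group mean and SD (n = 6 each). The groups overlap in all 9, and in LPIN1 4 low IMF pigs lie above every high IMF pig.

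The other isoforms of these 2 steps did not separate the groups. GPAM had 3.24 ± 0.336 CPM in high IMF and 2.90 ± 0.555 in low IMF, with an edgeR log2FC of -0.16 (SE 0.15) and adjusted p of 0.730. GPAT3 ranged from 3.99 to 12.4 CPM in high IMF and from 5.01 to 9.33 in low IMF, so the low IMF pigs lay inside the high IMF range, with a log2FC of -0.13 (SE 0.24). LPIN2 had 4.85 ± 0.906 and 5.57 ± 0.566 CPM, a log2FC of 0.20 (SE 0.13). LPIN3 had 1.86 ± 0.361 and 1.76 ± 0.287 CPM, a log2FC of -0.08 (SE 0.16). The smallest edgeR adjusted p of these 4 genes was 0.621, for LPIN2. In the pigs with matching Y counts the log2FC was 0.038 for GPAM, -0.13 for GPAT3, 0.17 for LPIN2 and -0.25 for LPIN3.

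The leading isoform of the GPAT and lipin steps was the same in both groups. GPAT4 took 92.6 ± 1.31% of its step per exonic length in high IMF and 94.5 ± 1.32% in low IMF. LPIN1 took 80.4 ± 5.42% and 86.9 ± 3.13% of its step per exonic length. Both shares overlapped between groups and were not tested.

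AGPAT1 and DGAT1 had group means closer than the spread between pigs, with log2FC of -0.06 and 0.11 and standard errors of 0.15 and 0.17. AGPAT1 ranged from 2.05 to 3.08 CPM in high IMF and from 2.12 to 3.20 in low IMF. DGAT1 ranged from 2.18 to 3.06 CPM in high IMF and from 2.05 to 4.36 in low IMF, the highest value being pig 8. Their edgeR adjusted p-values were 0.922 and 0.868. In the pigs with matching Y counts the log2FC was -0.0070 for AGPAT1 and -0.022 for DGAT1.

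DGAT2 varied most from pig to pig, within both groups. In high IMF it ran from 1.55 CPM in pig 4 over a median of 4.42 to 7.79 CPM in pig 6. In low IMF it ran from 0.851 CPM in pig 10 over a median of 3.25 to 7.89 CPM in pig 12. Both the lowest and the highest pig had low IMF, and the groups overlapped over nearly their whole range. The highest pig had 9.28 times the CPM of the lowest, against 1.56 to 3.59 times for the other 8 genes. The log2FC was -0.22 (SE 0.53), with an exact permutation p of 0.571 and an edgeR adjusted p of 0.914. In the pigs with matching Y counts the log2FC was 0.70, with an edgeR adjusted p of 0.998, and with labelled age as a covariate it was -0.60 (SE 0.55), with an edgeR adjusted p of 0.737.

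**Figure D4:**
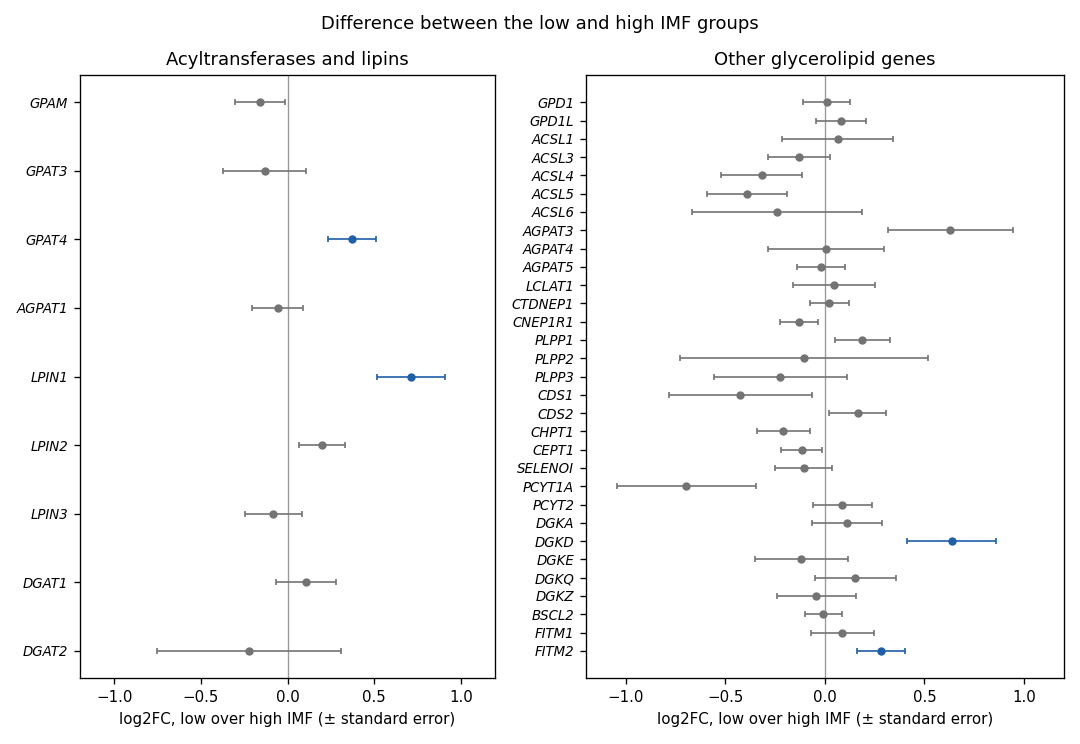
Log2 fold change, low over high IMF, with its standard error from edgeR for the 9 genes and for 31 other glycerolipid genes, with blue marking unadjusted p at or under 0.05. LPIN1 at 0.71 and GPAT4 at 0.37 are marked among the 9, DGKD at 0.64 and FITM2 at 0.28 among the others, and no gene passed adjustment over all genes.

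DGAT2 varied with the adipocyte markers. The level of these markers was the summed CPM of 8 genes found of 9 fixed, among them ADIPOQ (adiponectin), PLIN1 and FABP4. It ran from 60.0 to 140 CPM in high IMF, median 94.9, and from 35.9 to 152 CPM in low IMF, median 82.7, and so did not separate the groups (exact permutation p = 0.716). Of the 8 marker genes 5 were higher in low IMF, 3 in high IMF, and none had an unadjusted edgeR p at or under 0.05.

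Over the 12 pigs the log2 CPM of DGAT2 and the log2 marker level had a Pearson r of 0.977, with a permutation p of 1e-05, the smallest that 100000 resamples give, and an adjusted p of 0.0204 over all genes tested. Of 14262 genes 7 passed in this way (0.0491%), markers included. The adjusted p of 0.0204 rests on that smallest permutation p, so it and the count of 7 depend on the number of resamples. Spearman's rho was 0.937 with a permutation p of 2e-05 and an adjusted p of 0.0778, and 0 of 14262 genes passed by rho (0%). Without pigs 10 and 8, the farthest from the median marker level, r was 0.975. It was 0.974 within the high IMF pigs and 0.985 within the low IMF pigs, and 0.949 with the mean log2 CPM of the markers in place of their sum. The part of adipocyte number in the DGAT2 values was not tested.

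**Figure D5:**
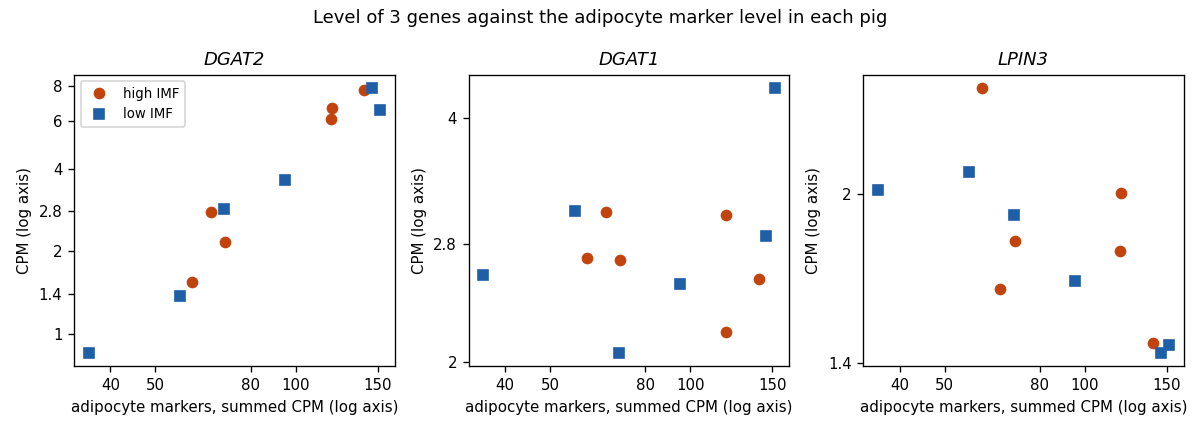
CPM of DGAT2, DGAT1 and LPIN3 against the summed CPM of the adipocyte markers, both on log axes, 1 point per pig and marked by IMF group. DGAT2 lies along a rising line with pigs of both groups mixed (r = 0.977), DGAT1 shows no such line (r = 0.26) and LPIN3 tends downward (r = -0.69).

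None of the other 8 genes passed adjustment against the adipocyte level. Of the 9 genes 4 had an unadjusted permutation p of r at or under 0.05, DGAT2, LPIN3, AGPAT1 and GPAM, against 4.89% of all genes tested. LPIN3 had r = -0.69 (permutation p = 0.0124, adjusted p = 0.823) and rho = -0.78 (permutation p = 0.00392, adjusted p = 0.611), with r = -0.67 without pigs 10 and 8, so its level tended to be lower in pigs with more adipocyte transcript. AGPAT1 had r = 0.61 (permutation p = 0.0361, adjusted p = 0.966) and rho = 0.71 (permutation p = 0.0114, adjusted p = 0.879), with r = 0.39 without those pigs. GPAM had r = 0.61 (permutation p = 0.0269, adjusted p = 0.927) and rho = 0.29, with r = 0.44 without them, so the relations of AGPAT1 and GPAM were weaker without these 2 pigs. DGAT1, GPAT3, GPAT4, LPIN1 and LPIN2 had r between -0.07 and 0.26. LPIN1 and GPAT4, the genes nearest to a group difference, had r = -0.07 and 0.13 (permutation p = 0.816 and 0.696).

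The genes with the pattern most like each leading isoform, by Pearson r of log2 CPM over 12 pigs that share the same libraries, are given without a test. For DGAT2 they were ADIPOQ (0.984), HACD2 (0.946), an enzyme of fatty acid elongation, and CIDEC (0.944), a droplet fusion protein, and ADIPOQ and CIDEC belong to the marker list itself. For LPIN1 they were ZFAND5 (0.934), ATG13 (0.902), part of the complex that starts autophagy, and CRACD (0.899). For GPAT4 they included HGH1 (0.908) and PITPNC1 (0.852), and for AGPAT1 they were TXLNG (0.908), ADAMTS3 (0.858) and BMP2 (0.856).

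Of 36 other glycerolipid genes listed, 31 were tested, 15 higher in low IMF and 16 higher in high IMF, with a median log2FC of -0.01, the same to 2 decimals as over all genes. None passed adjustment in edgeR, and 2 of 31 (6.45%) had an unadjusted p at or under 0.05 against 10.4% of all genes. These were DGKD and FITM2. DESeq2 on the same genes gave 4 of 31, with AGPAT3 and PCYT1A added, against 11.9% of all genes, and none passed adjustment. DGKD, a kinase that turns diacylglycerol back into phosphatidate, had mean levels of 16.8 CPM in high and 26.2 CPM in low IMF, log2FC 0.64 (SE 0.22), and an edgeR adjusted p of 0.427. FITM2, a protein of the endoplasmic reticulum needed for droplet budding, had 7.64 and 9.28 CPM, log2FC 0.28 (SE 0.12) and an edgeR adjusted p of 0.452.

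The leading gene of each role, by CPM per exonic kilobase, showed how the supply and the branches compare with the 4 steps. GPD1, which makes glycerol 3-phosphate from a glycolytic intermediate, had 169 CPM per exonic kilobase. ACSL1, the acyl-CoA synthetase that activates fatty acids in muscle, had 41.3 ± 15.2 (SD, n = 12). Both means exceeded that of GPAT4 at 37.8 ± 7.81, but ACSL1 and GPAT4 overlapped per exonic kilobase and could not be ordered on that scale. Per coding kilobase these 2 genes did not overlap, ACSL1 running from 55.9 to 171 CPM and GPAT4 from 26.6 to 55.7. PLPP1, a membrane phosphatase that also acts on phosphatidate, had 20.2 and CNEP1R1, a subunit of the phosphatase that activates lipins, 5.83 per exonic kilobase. For CTDNEP1, the catalytic subunit of that complex, no length was used here. In the branches from diacylglycerol, CHPT1, the cholinephosphotransferase of phosphatidylcholine synthesis, had 32.5 CPM per exonic kilobase. The diacylglycerol kinases DGKZ and DGKD had 2.27 ± 0.538 and 2.24 ± 0.796 (SD, n = 12) per exonic kilobase and could not be ordered, DGKD having the higher mean in low IMF at 2.72 against 2.23. FITM1, the muscle relative of FITM2, had 37.9 CPM per exonic kilobase. GPD1 had mean levels of 905 and 911 CPM in high and low IMF, with a log2FC of 0.01 and a standard error of 0.12.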

How the data were processed

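The authors sequenced stranded libraries of polyadenylated RNA, trimmed the reads with Trimmomatic, aligned them with HISAT2 to the pig genome, assembled with StringTie, and deposited HTSeq counts per Ensembl gene as whole numbers, not normalized. The annotation release, strand option and handling of reads with several alignments were not given in the sources used here. Genes kept by filterByExpr were normalized by TMM and compared by edgeR's quasi-likelihood test with group as the only term (edgeR 4.0.16, R 4.3.3), with Benjamini-Hochberg adjustment over 14262 genes. The common biological coefficient of variation was 0.332. Log2 CPM used a prior count of 2. Alternatives used DESeq2 1.42.0 and limma 3.58.1. Lengths came from RefSeq models of Sscrofa11.1 matched by symbol, which are not the models counted. Permutation tests were two-sided (scipy 1.17.1). Fits were tested on simulated data. Labels name no separate cultures or repeat samples, and each pig is 1 replicate.

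The members and lists were chosen with earlier results of these data known. Named were all members and the 3 genes most like the leading isoform of each step. Other glycerolipid genes were named for an unadjusted p at or under 0.05 or the highest level of their role per exonic length. Of the genes most like GPAT4, 1 is not reported here. GK, GPAT2, MOGAT1, MOGAT2 and MOGAT3 were listed but not analysed here. The slow fibre, connective tissue and macrophage markers gave exact permutation p-values of 0.543, 0.522 and 0.416 between groups.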

Additional observations from a re-analysis of the deposited data

Results flagged for a closer look

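Of 20 groups of 6 pigs examined for a single pig far from the others, 1 stood out, and chance alone flags about 1 in 20. LPIN2 had 4.51 CPM in pig 7, the lowest of the low IMF pigs, whose gap to the next pig was 0.645 of the range of that group, above Dixon's critical value for 6 samples. The cause was not tested.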

How the results depend on the processing

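None of the 9 genes was called under any alternative or with any pig left out. LPIN1, GPAT4 and LPIN2 kept a higher level in low IMF throughout: over the alternatives the log2FC ran from 0.60 to 0.79 for LPIN1 and from 0.34 to 0.39 for GPAT4, with adjusted p from 0.0515 to 0.998 and from 0.246 to 0.998. With 1 pig left out LPIN1 ran from 0.60 to 0.82 and GPAT4 from 0.29 to 0.47. Over all genes DESeq2 called 57 of the same genes and 64 of those with at least 1 count, against 0 in edgeR, and leaving out 1 pig gave 0 to 1, the 1 without pig 5 and again without pig 10. The direction turned for 5 genes. With 1 pig left out the log2FC ran from -0.26 to 0.059 for GPAT3 (positive without pig 6), from -0.14 to 0.018 for LPIN3 (positive without pig 4), from -0.038 to 0.19 for DGAT1 (negative without pig 8) and from -0.55 to 0.0049 for DGAT2 (positive without pig 6). In the pigs with matching Y counts it was 0.038 for GPAM, -0.022 for DGAT1 and 0.70 for DGAT2. With labelled age as a covariate DGAT2 was at -0.60. Against the mean log2 level of the adipocyte markers r was -0.039 for GPAT3 and 0.052 for LPIN2, and without the 2 farthest pigs 0.099 for LPIN2 and -0.13 for DGAT1. The GPAT4 share was 86.2% with coding length, by construction of the lengths. With 1 pig left out the shares ran from 93.4% to 93.8% for GPAT4, from 83.0% to 84.7% for LPIN1 and from 69.0% to 73.1% for DGAT2. Where no construction is named, the cause was not tested. DGAT2 had as few as 139 counts in a pig, and its SD was 58.9% of the mean in high and 73.1% in low IMF. Counting error of DGAT2 was thus small beside the spread between pigs. LPIN3 had as few as 184 counts, with SDs of 19.4% and 16.3% of the mean, and the part of counting error in them was not tested. No paired analysis was possible because the groups share no replicate numbers.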
